A study of Mus musculus with 8 samples.

Results

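Apoe, Stab1, Dab2, Selenop, Hmox1, Socs3, Clec4e and Fxyd2 are 8 of the 31053 genes in the count files, and they are described here as scavenger and response genes of skin macrophages. The genes were chosen by values measured in these same libraries, their difference between PBMCsec and vehicle in dendritic cells (DCs) and macrophages as 1 joint class. In that contrast DESeq2 calls 6 genes, all higher after PBMCsec and all members (Apoe, Stab1, Dab2, Socs3, Clec4e and Fxyd2), and edgeR with the library number as a block calls Selenop and Hmox1 beside Stab1, Clec4e and 2 genes that are no members. Their difference between treatments in DCs and macrophages is therefore a description with no test, as are their levels across cell classes. Fibroblasts (FBs), keratinocytes (KCs) and T cells (TCs) were not used to choose them and were tested.

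The libraries come from dorsal skin of female BALB/c mice, aged 14 to 16 weeks, 4 injected subcutaneously with PBMCsec and 4 with vehicle. The paper describes its injections into formed scars as intradermal. PBMCsec is the secretome of gamma-irradiated human peripheral blood mononuclear cells, and the study gave it to scarred skin in order to ask how it alters scars. The labels number the libraries 1 to 4 in each group. They leave out when the skin was wounded and sampled and which control solution served as vehicle. Nor do they say that each library is a separate animal, so that p-values measure the spread between these libraries. In the paper, some mice of each injected group were sampled right after treatment and the others after a further interval without it. The libraries of a group may therefore mix sampling times, and this was not tested. Skin was dissociated with enzymes and viable cells were captured with the 10x Genomics 3′ chemistry, which counts each captured transcript once by its unique molecular identifier (UMI).

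Tissue macrophages take up modified lipoproteins, dying cells and free haem through scavenger receptors, sort the cargo by endocytic adaptors and export cholesterol on apolipoprotein E. Haem is broken down by haem oxygenase, and the iron it frees is stored in ferritin. Receptors for microbial glycolipids and cytokine feedback inhibitors make up the response side of the same cells, and both sides are known from wound repair in skin.

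After filtering, 6150 of 26231 barcodes were kept (3320 after PBMCsec and 2830 after vehicle), and library totals over all barcodes lay between 14753926 and 37880651 UMIs. Of 35 clusters, cluster 17 (158 cells, 105 after PBMCsec and 53 after vehicle) was named macrophages: 14 of 15 macrophage markers met the naming rule, among them the complement genes C1qa, C1qb and C1qc, and all 15 were detected, with a summed level of 24644 to 34458 CPM after PBMCsec and 14539 to 35137 CPM after vehicle. A further 237 cells were dermal DCs and 124 were Langerhans-type cells, which with the macrophages form the joint class of 519 cells, while clusters left without a name took 21.7% of kept barcodes in the PBMCsec group and 27.8% in the vehicle group. The members were kept out of the genes used for clustering. The vehicle libraries 1 and 2 hold 6 and 5 macrophages and the other libraries 13 to 33, so that these 2 libraries carry 51275 and 26412 macrophage UMIs against 82364 to 239800 elsewhere. Levels are given as the gene's counts per 1e+06 UMIs of the class in that library (CPM), and the mean and standard deviation (SD) are over libraries.

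The members lie on 7 mouse chromosomes (GENCODE M21, GRCm38) and all are protein-coding. Apoe spans 19696109 to 19699188 on chromosome 7 (minus strand, 4 exons in the principal transcript), Stab1 31139013 to 31168641 on chromosome 14 (minus strand, 69 exons), and Clec4e 123281789 to 123289870 on chromosome 6 (minus strand, 6 exons). Dab2 (6299788 to 6440712, 15 exons) and Selenop (3268547 to 3280508, 5 exons) are both on the plus strand of chromosome 15. Hmox1 spans 75093621 to 75100589 on chromosome 8 (plus strand, 5 exons), Socs3 117966079 to 117970047 on chromosome 11 (minus strand, 2 exons) and Fxyd2 45399669 to 45410278 on chromosome 9 (plus strand, 6 exons). No member shares bases with another gene on its own strand. On the opposite strand Stab1 meets Nt5dc2, Selenop meets Ccdc152 and Dab2 meets Gm16311 and Gm18888, and the strand setting of the counting is not given in the sources used here.

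Upstream sequence is shown for the members whose RefSeq start (GRCm38.p6) lies within 1 base of the GENCODE start, because at these genes both annotations place a start at the same position. Apoe and Dab2 have further RefSeq starts, and counts from the 3′ end do not tell which start was used. RefSeq promoters were matched for 6 of the 8 members. The 250 bases before the start of Apoe (chr7:19699189-19699438, minus strand), Stab1 (chr14:31168642-31168891, minus strand), Clec4e (chr6:123289872-123290121, minus strand) and Dab2 (chr15:6299539-6299788, plus strand) are printed 5′ to 3′ on the strand of the gene, and capitals mark matches on either strand to TTCNNNGAA (the STAT-type motif), TGANTCA (AP-1), TGANNNNGC (the antioxidant response core), GGGANTTCC (NF-kB), GAGGAAGT (PU.1) or TATAAA (the TATA box). No 2 of these matches overlap in the 4 windows.
Apoe: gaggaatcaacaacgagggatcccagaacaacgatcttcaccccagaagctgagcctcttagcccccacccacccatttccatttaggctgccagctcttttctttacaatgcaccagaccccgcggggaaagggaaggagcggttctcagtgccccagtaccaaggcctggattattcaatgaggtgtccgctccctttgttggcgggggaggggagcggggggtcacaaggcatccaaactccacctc
Stab1: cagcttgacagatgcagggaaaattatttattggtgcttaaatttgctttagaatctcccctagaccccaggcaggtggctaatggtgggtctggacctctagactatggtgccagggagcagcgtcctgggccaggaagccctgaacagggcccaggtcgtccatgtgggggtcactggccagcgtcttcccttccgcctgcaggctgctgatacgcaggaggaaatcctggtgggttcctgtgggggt
Clec4e: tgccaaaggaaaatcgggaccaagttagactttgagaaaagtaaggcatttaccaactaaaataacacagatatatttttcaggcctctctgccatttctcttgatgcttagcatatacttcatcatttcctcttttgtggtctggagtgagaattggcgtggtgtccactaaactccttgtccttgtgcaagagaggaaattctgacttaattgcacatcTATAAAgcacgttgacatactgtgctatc
Dab2: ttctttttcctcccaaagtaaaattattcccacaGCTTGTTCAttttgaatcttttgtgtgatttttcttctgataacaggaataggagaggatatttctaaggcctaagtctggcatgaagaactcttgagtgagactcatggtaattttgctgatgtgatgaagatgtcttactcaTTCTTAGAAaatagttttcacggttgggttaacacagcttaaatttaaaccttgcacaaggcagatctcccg

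The printed windows of Apoe and Stab1 hold none of the 6 motifs, while a further Apoe entry, whose window begins at 19698622, holds TATAAA at -96 to -91 with a reverse match that overlaps it. Clec4e has TATAAA from position -29 to -24 before its start, a motif that 12.4% of 32851 mouse promoter windows of the same length hold. Dab2 has TTCTTAGAA at -72 to -64, a match to the STAT-type motif found in 7.02% of windows, and GCTTGTTCA at -216 to -208, a match to TGANNNNGC found in 35.2%. The window before the RefSeq start of Socs3, a gene that STAT factors are known to switch on, holds the same 9 letters TTCTTAGAA at -154 to -146. That window lies inside the GENCODE gene and is not printed. Of the 3 Selenop entries, the windows at 3270517 and 3270561 hold the PU.1 match ACTTCCTC (2.44% of windows) and the window at 3270727 holds TATAAA at -10 to -5. AP-1 and NF-kB letters (6.75% and 1.43% of windows) were in none of the members' windows. Letters in a window are a description and do not show that a factor binds there.

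Across 11 named cell classes, 5 of the 8 members had their highest mean level in macrophages (Apoe, Dab2, Selenop, Hmox1 and Fxyd2), and the other 3 were led by ECs (Stab1), smooth muscle cells and pericytes (Socs3) and neutrophils (Clec4e). The order is a description, since the classes come from clusters, and it stood for the same 5 members when each cell was thinned to 1000 UMIs. Classes are compared over libraries that hold at least 3 of their cells.

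**Figure D1:**
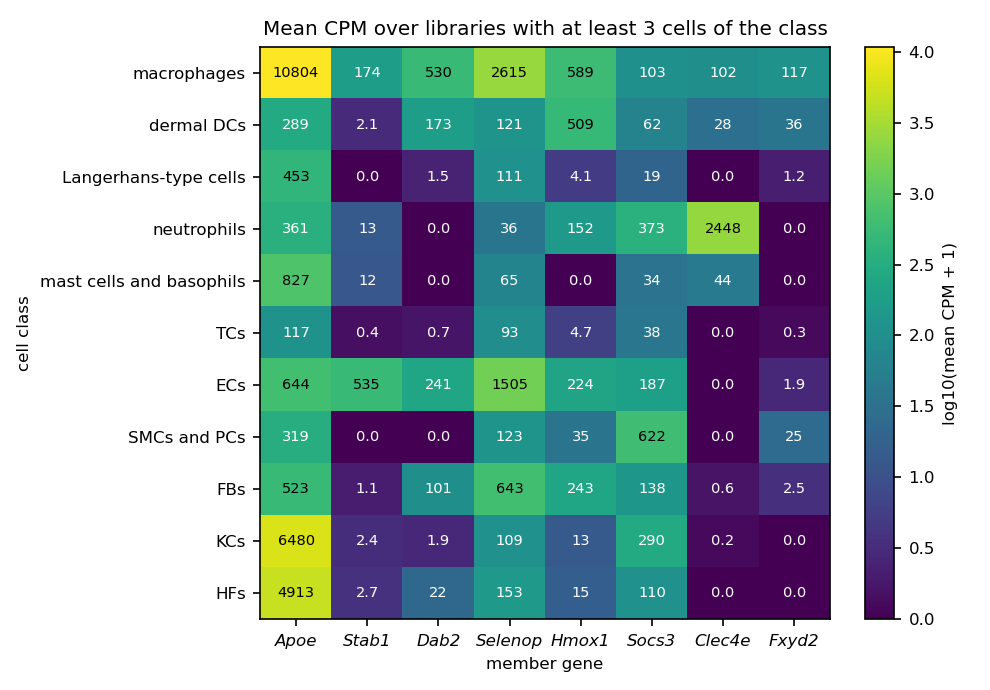
Mean CPM of each member (columns) in 11 cell classes (rows), averaged over the libraries with at least 3 cells of the class, with colour for log10(mean CPM + 1) and the mean CPM printed. Macrophages hold the highest value for 5 genes, while Clec4e peaks in neutrophils at 2448 CPM and Stab1 in ECs at 535 CPM.

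Apoe, the apolipoprotein that carries cholesterol out of cells, stood at 10804 ± 4669.6 CPM in macrophages (SD, n = 8), ahead of KCs at 6479.6 ± 2499 CPM in 6 of 8 libraries. Hair follicle cells (HFs) followed at 4913 ± 1359 CPM (n = 7). The gene is not a macrophage marker in this skin: macrophages hold 4.08% of the 294378 Apoe UMIs, KCs 29.6% and the unnamed clusters 57.5%. The unnamed cluster 15, led by Krt6a, Wfdc18 and Rnase12, reached 26907 CPM when its cells were summed, above the 11977 CPM of summed macrophages. A UMI of Apoe was found in 94.9% of macrophages (95% exact binomial interval 90.3 to 97.8%) and in 30.9% of TCs, taken as a class that should lack it (median depth 5796.5 and 3290.0 UMIs per cell). At 1000 UMIs per cell these shares were 86.5% and 11.6%, and Apoe levels near those of TCs are read as background. Intervals cover counting error only.

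Stab1 encodes stabilin-1, a scavenger receptor of macrophages and of sinusoidal and lymphatic endothelium. It was highest in ECs at 535 ± 187 CPM and in 7 of 8 libraries exceeded macrophages, which stood at 174 ± 140.1 CPM. Between them ECs and macrophages hold 50.9% and 37.3% of its 595 UMIs. Within ECs, cluster 31 reached 853 CPM with a UMI in 94.1% of cells and cluster 33 reached 74.2 CPM with 20.6%. Stab1 was at 0 UMIs in Langerhans-type cells, where 0 of 124 cells allows up to 2.42% of cells with a UMI (the limit set by 3 counts, which is no limit on cells that express the gene), and at 4 UMIs in dermal DCs.

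Dab2, an endocytic adaptor that links receptors to clathrin, stood at 530.0 ± 345 CPM in macrophages, 241 ± 85.6 in ECs, 173 ± 111 in dermal DCs and 101 ± 33.8 in FBs. Macrophages exceeded ECs in 7 of 8 libraries, ECs exceeded dermal DCs in 6 and dermal DCs exceeded FBs in 5, so that the order of the last pair is within the spread between libraries. FBs are numerous and hold 55.5% of the 2830 Dab2 UMIs. Among 737 TCs, 2 cells had a UMI (0.271%), against 58.9% of macrophages and 48.9% of dermal DCs.

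Selenop encodes selenoprotein P, a secreted carrier of selenium. Its level was 2615 ± 1527 CPM in macrophages and 1505 ± 507 CPM in ECs, with macrophages ahead in 5 of 8 libraries, so that these classes do not differ beyond their spread. FBs followed at 643 ± 301 CPM and hold 49.95% of its 19199 UMIs. In the lymphatic-type cluster 31 it was 2152 CPM and in the FB cluster 7, led by Myoc, Mgp and Angptl1, 1171 CPM.

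Hmox1, the inducible haem oxygenase, stood at 589 ± 857 CPM in macrophages and 509 ± 922 CPM in dermal DCs. The SD exceeds the mean in both, and the next classes, FBs at 243 ± 423 CPM and ECs at 224 ± 344 CPM, do not stand apart from them. A UMI was found in 53.8% of macrophages, 20.7% of dermal DCs, 22.8% of FBs and 1.76% of TCs.

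Socs3, the feedback inhibitor of cytokine receptors that signal through STAT3, was a gene of many cell types. Smooth muscle cells and pericytes led at 622 ± 584 CPM (n = 5), followed by neutrophils at 373 ± 308 CPM and KCs at 290.4 ± 157 CPM, and macrophages stood at 103 ± 71.5 CPM. No step down this order held in every library, and thinning to 1000 UMIs put neutrophils first at 399 CPM and smooth muscle cells and pericytes second at 355 CPM. KCs hold 47.2% of the 7325 Socs3 UMIs and the joint class of DCs and macrophages 292 UMIs in all.

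Clec4e encodes Mincle, a C-type lectin receptor for mycobacterial glycolipid and for a protein of dead cells. It was 2448 ± 1838 CPM in neutrophils and 102 ± 117 CPM in macrophages, higher in neutrophils in 8 of 8 libraries. Neutrophils hold 68.3% of its 712 UMIs, with a UMI in 73.7% of their cells, against 17.7% of macrophages, 6.33% of dermal DCs and 0 of 737 TCs. In neutrophils the PBMCsec libraries 1 to 4 stood at 1248, 3492, 2344 and 1497 CPM and the vehicle libraries at 1685, 2704, 301 and 6313 CPM, and the groups overlap.

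Fxyd2, which encodes the gamma subunit that modulates the sodium-potassium ATPase and is best known from kidney, was found mainly in macrophages and dermal DCs. Macrophages hold 55.4% and dermal DCs 29.3% of its 276 UMIs. It was 117 ± 82 CPM in macrophages and 35.9 ± 67 CPM in dermal DCs, with macrophages ahead in 7 of 8 libraries. Only 25.3% of macrophages had a UMI, and neutrophils, mast cells, KCs and HFs had 0 UMIs.

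**Figure D2:**
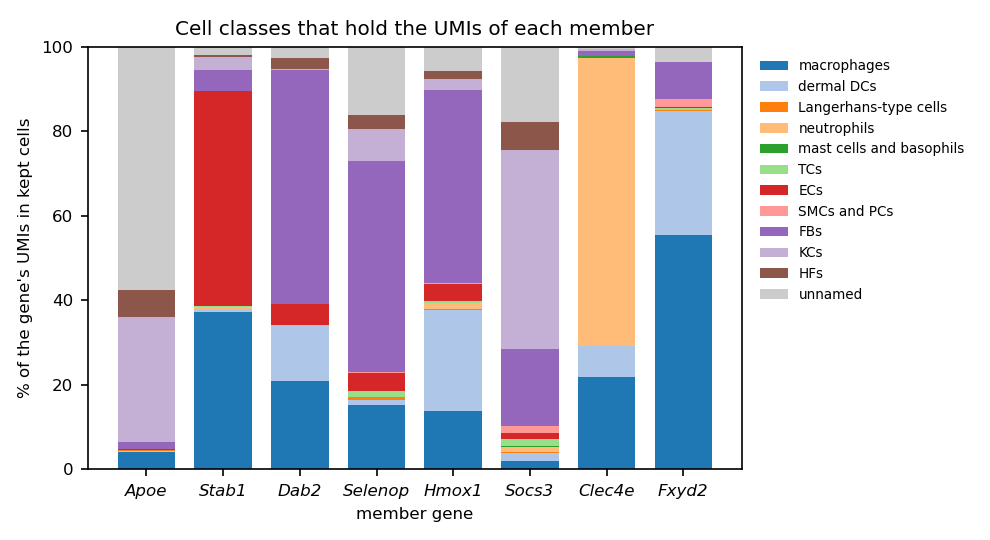
Stacked bars give the percentage of each member's UMIs in kept cells that falls in each cell class (12 colours, unnamed clusters in grey). Macrophages hold 55.4% of Fxyd2 and 37.3% of Stab1, while unnamed clusters hold 57.5% of Apoe and neutrophils 68.3% of Clec4e.

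The members followed each other from cluster to cluster to unequal degrees. Over the 35 clusters, Pearson's r of log2 CPM (prior 10 CPM) between members ran from -0.17 for Apoe and Dab2 to 0.75 for Dab2 and Selenop, and Dab2 and Hmox1 also reached 0.75. Stab1 and Dab2 stood at 0.56 and Selenop and Hmox1 at 0.49, while Apoe stayed between -0.17 and 0.19 with every other member. These values describe clusters that share libraries and depth. Among 12787 genes with at least 100 UMIs, the nearest to Apoe were Cib2 (r = 0.84), Eva1a (0.83) and Rreb1 (0.83), and the nearest to Stab1 were Chp2 (0.89), Lyve1 (0.86), a hyaluronan receptor of lymphatic endothelium, and Ifi44 (0.82). Dab2 lay closest to Rab3il1 (0.97), Rgl1 (0.88) and Mras (0.87), and Selenop to Timp2 (0.79), Acp2 (0.77) and Renbp (0.77).

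The response genes had other neighbours. Hmox1 ran with Tifa (0.82), Alpk1 (0.79) and Stard9 (0.78), and Socs3 with Bnip3 (0.69), the immediate early gene Fos (0.68) and Sbno2 (0.66). Clec4e ran with the complement receptor C5ar1 (0.98), Lilra6 (0.97) and Cd33 (0.96), which are myeloid genes, and Fxyd2 with Rnase2a (0.90), Ms4a8a (0.90) and the chemokine Ccl24 (0.89).

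In macrophages themselves, Apoe, Stab1 and Fxyd2 stood higher in every PBMCsec library than in any vehicle library, and the other 5 members overlapped between the groups. For all 7728 genes with at least 10 UMIs in macrophages, 1.95% showed such a separation in this direction. The members were chosen from a contrast that contains these cells, so that nothing is read from that comparison. A lower CPM of a class can come from fewer cells with the gene or from fewer UMIs in each, so the share of cells is given where it bears on a gene.

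Apoe stood at 15175, 17498, 15222 and 9948 CPM in the PBMCsec libraries 1 to 4 and at 4719.6, 9238, 5791 and 8839 CPM in the vehicle libraries 1 to 4. The means were 14461 ± 3198 and 7147 ± 2233 CPM (SD, n = 4 each), a ratio of 2.02. The lowest PBMCsec library, number 4, lay just above the highest vehicle library, number 2, and the share of macrophages with an Apoe UMI was 96.2% after PBMCsec and 92.5% after vehicle. Vehicle 2 drew 60.2% of its 244 Apoe UMIs from a single cell.

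Stab1 was 304, 237, 421 and 183 CPM after PBMCsec and 97.5, 37.9, 15.8 and 97.1 CPM after vehicle. The PBMCsec counts behind these levels were 73, 25, 71 and 37 UMIs and the vehicle counts 5, 1, 2 and 8 UMIs. The ratio of means was 4.61, but it rests on 16 vehicle UMIs in all. The share of macrophages with a Stab1 UMI was 18.2 to 50% after PBMCsec and 3.57 to 33.3% after vehicle, and these ranges overlap. At 1000 UMIs per cell the shares were 9.09 to 23.1% and 0 to 7.14%. These do not overlap, but on the vehicle side only 1 of 53 macrophages had a UMI. The share of all genes apart in this measure was not computed.

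Fxyd2 was 271, 142, 196 and 113 CPM after PBMCsec and 58.5, 37.9, 71.2 and 48.6 CPM after vehicle, with means of 181 ± 69.2 and 54 ± 14.2 CPM and a ratio of 3.34. Its vehicle libraries 1 to 4 held 3, 1, 9 and 4 UMIs, so each is within a few counts of none. The PBMCsec library 4 lay lowest in its group for Apoe, Stab1 and Fxyd2 alike.

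Dab2 was 484, 474, 1304 and 543 CPM after PBMCsec and 137, 606, 316 and 376 CPM after vehicle, and vehicle 2 with 16 UMIs lay above 3 of the 4 PBMCsec libraries. Selenop was 5063, 4033, 3616 and 1421 CPM after PBMCsec and 2028, 2839.6, 831 and 1093 CPM after vehicle. Here PBMCsec 4 lay below the vehicle libraries 1 and 2. In those libraries a single cell held 81.7% and 86.7% of the Selenop UMIs, and with the leading cell of each library set aside the PBMCsec range was 1222 to 4621 CPM and the vehicle range 431 to 930.0 CPM. At 1000 UMIs per cell the share of macrophages with a Selenop UMI was 51.5 to 92.3% after PBMCsec and 32.1 to 42.9% after vehicle. These do not overlap, and the share of all genes apart in this measure was not computed.

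Hmox1 was 1030.0, 247, 290.5 and 183 CPM after PBMCsec and 97.5, 2575, 142 and 146 CPM after vehicle. The highest value of all, in vehicle 2, came from 1 of 5 macrophages, which held all 68 Hmox1 UMIs of that library. In PBMCsec 1 a single cell held 61.9% of 247 UMIs. Without the leading cell of each library Hmox1 lay at 145 to 408 CPM after PBMCsec and at 0 to 117 CPM after vehicle.

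Socs3 was 175, 85.4, 172 and 183 CPM after PBMCsec and 0, 114, 87 and 12.1 CPM after vehicle. PBMCsec 2, with 9 UMIs, fell among the vehicle libraries, and vehicle 1 had 0 UMIs, which allows up to 58.5 CPM there. With the cells of a group pooled, a Socs3 UMI was found in 39.0% of macrophages after PBMCsec and in 22.6% after vehicle. Per library these shares were 15.4 to 53.8% and 0 to 40%, and the ranges overlap. At 1000 UMIs per cell the pooled shares were 18.4% and 9.43%, with 0 to 26.9% and 0 to 20% per library, which also overlap.

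Clec4e was 300.2, 9.49, 231 and 183 CPM after PBMCsec and 19.5, 37.9, 23.7 and 12.1 CPM after vehicle. Each vehicle library held 1 to 3 UMIs and PBMCsec 2 held 1. In PBMCsec 1 a single macrophage held 77.8% of 72 UMIs. Neutrophil markers were summed beside it, since neutrophils carry the gene: 5 of 8 were detected in macrophages (Cxcr2, Retnlg and G0s2 were at 0), with 88.8 to 133 CPM after PBMCsec and 39.6 to 158 CPM after vehicle, and their part in the Clec4e difference was not tested.

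**Figure D3:**
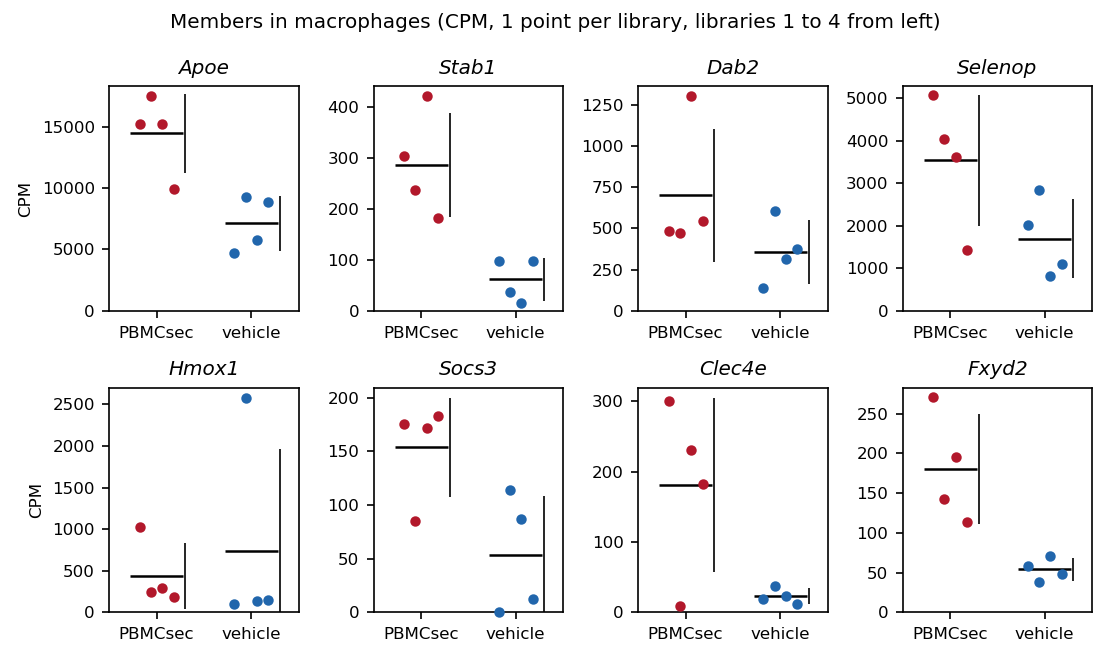
CPM of the 8 members in macrophages, 1 panel per gene with its own axis from 0, where points are libraries 1 to 4 from left to right, the horizontal line is the mean and the vertical line 1 SD either side (n = 4), cut at 0. Apoe, Stab1 and Fxyd2 do not overlap between PBMCsec and vehicle, and the vehicle point of Hmox1 at 2575 CPM is library 2.

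The number of members apart moved with single cells and with the thinnest libraries. With the leading cell of each member set aside in each library, 6 of 8 members were apart (Apoe, Stab1, Dab2, Selenop, Hmox1 and Fxyd2), beside 4.35% of all genes treated alike. Without the vehicle libraries 1 and 2, the same 6 were apart, beside 8.28% of genes with 4 libraries set against 2. Leaving out PBMCsec 2 brought Socs3 and Clec4e apart, and leaving out PBMCsec 4 brought Selenop apart. Leaving out vehicle 2 brought Dab2 and Hmox1 apart. The share of all genes apart was not computed with 1 library left out, so nothing is read from these changes. Apoe, Stab1 and Fxyd2 stayed apart in these settings, but leaving out libraries cannot undo a separation. Setting the leading cell aside is not an even check either. It takes 1 of 6 and 1 of 5 macrophages in the vehicle libraries 1 and 2, and 1 of 13 to 33 elsewhere. With it the share of all genes apart rose from 1.95% to 4.35%. Stab1 fell to 0 CPM in the vehicle libraries 2 and 3, and Fxyd2 in 1 and 2. Little is therefore read from Apoe, Stab1 and Fxyd2 staying apart. In the second set of barcodes, described below, each of them overlapped.

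In the joint class of DCs and macrophages, the contrast from which the members were taken, 6 of 8 were apart (Apoe, Stab1, Dab2, Socs3, Clec4e and Fxyd2), where 1.57% of 10648 genes were, and DESeq2 calls these 6 (0.107% of 5593 genes). The edgeR test called 0 of 5593 genes there, with 148 higher (2.65%) and 115 lower (2.06%) at an unadjusted p under 0.05. Macrophages made up 32.5, 38.2, 26.0 and 41.3% of the class in the PBMCsec libraries and 25, 33.3, 26.7 and 25.9% in the vehicle libraries. They gave 18.1 to 34.8% of its UMIs after PBMCsec and 20.3 to 22.4% after vehicle. In 3 of the 4 PBMCsec libraries this share of UMIs lay above every vehicle library, and in PBMCsec 3 it lay below all of them. The part of that share in the joint result was not tested. The ratios within macrophages, given above, come from the contrast that chose the members, so nothing is read from them here.

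In dermal DCs 1 member of 8, Socs3, was apart, beside 1.77% of 9141 genes. The mean of all 8 members was higher after PBMCsec, with Stab1 on 4 UMIs in all. These cells are part of the contrast from which the members were chosen, so nothing is read from either comparison. Whether the members differ between dermal DCs and macrophages was not tested. Socs3 was 59.5, 158, 95.1 and 87.6 CPM after PBMCsec and 39, 0, 44.1 and 10.4 CPM after vehicle. Vehicle 2 had 0 Socs3 UMIs in 6 dermal DCs with 37763 UMIs. The floor of 3 counts there lies above the level of PBMCsec 1, so the separation is not firm. Apoe in the same cells was 167 to 499 CPM after PBMCsec and 46.8 to 450.2 CPM after vehicle, ranges that overlap each other and the 41.97 to 353 CPM of TCs. Hmox1 in dermal DCs ranged from 35.9 to 2744 CPM after PBMCsec, with 221 of 451 UMIs of PBMCsec 2 in a single cell, and from 26 to 289 CPM after vehicle. Fxyd2 reached 199 CPM in PBMCsec 4, where a single cell held 96% of 50 UMIs, and 0 to 31.0 CPM elsewhere. In Langerhans-type cells Stab1 and Clec4e had 0 UMIs, and Socs3 was 40.4, 37.6, 35.9 and 15.6 CPM after PBMCsec and 13.8, 0, 10.5 and 0 CPM after vehicle, on 0 to 9 UMIs per library.

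A second set of barcodes served as a look at the same libraries in other cells. The filter discards barcodes with over 5% mitochondrial counts, and those with 5 to 15% (6942 barcodes) were clustered on their own and gave 189 macrophages. These cells are not further samples, and no test was made. Of the 8 members 0 were apart there, beside 1.24% of 6940 genes. No cluster of these barcodes was named Langerhans-type cells, so their joint class holds macrophages and dermal DCs only. In it Hmox1 and Socs3 were apart, beside 1.13% of 8877 genes.

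Apoe in this second set was 14074, 19049.7, 18401 and 12481 CPM after PBMCsec and 15378, 11369.8, 16967 and 10040.1 CPM after vehicle, a ratio of means of 1.19. Vehicle libraries 1 and 3 lay within the PBMCsec range. Stab1 was 605, 707, 800.4 and 673 CPM after PBMCsec and 208, 161, 877 and 615 CPM after vehicle, where vehicle 3 was the highest of all 8 and vehicle 1 and 2 the lowest. Fxyd2 was 319.9, 276, 509 and 126 CPM after PBMCsec and 0, 121, 477 and 234 CPM after vehicle. The 3 genes that were apart in the kept cells thus overlap here, with ratios of 1.19, 1.5 and 1.48.

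For Hmox1 the ratio of means in macrophages was 0.591 in the kept cells. In the second set it was 4158, 2729, 2001 and 494 CPM after PBMCsec and 139, 887, 234 and 322 CPM after vehicle, a ratio of means of 5.93. PBMCsec libraries 1, 2 and 3 lay above every vehicle library and PBMCsec 4 lay among them. How much of these levels single cells held was not computed in the second set. In dermal DCs of the second set Hmox1 was 172 to 3142 CPM after PBMCsec and 0 to 47.5 CPM after vehicle. These ranges do not overlap, and the share of all genes apart in these cells was not computed. The ratios in macrophages were 1.37 for Selenop, 1.94 for Socs3 and 1.08 for Dab2. Clec4e was on 0 to 11 UMIs per library in this set and its level was 0 to 95.1 CPM after PBMCsec and 0 to 34.6 CPM after vehicle.

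**Figure D4:**
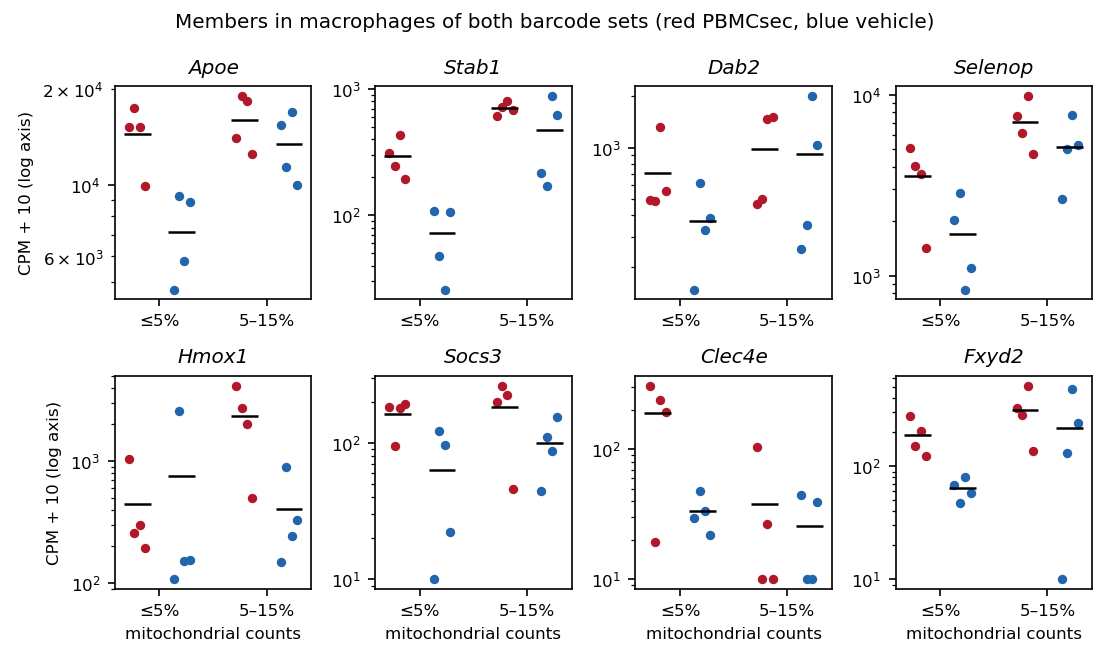
CPM + 10 on a log axis for the 8 members in macrophages of the kept barcodes (up to 5% mitochondrial counts, left in each panel) and of the barcodes with 5 to 15% (right), where points are libraries, red for PBMCsec and blue for vehicle, and lines are means. Apoe, Stab1 and Fxyd2 are apart on the left and overlap on the right. The ratio of Hmox1 means is 5.93 on the right, where the part held by single cells was not computed.

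FBs, KCs and TCs were not part of the choice, and there no member passed the test. The edgeR test called 0 of 9413 genes in FBs (0% higher and 0% lower), 0 of 8647 in KCs and 0 of 4343 in TCs. At an unadjusted p under 0.05 it gave 108 higher and 103 lower genes in FBs, 46 and 29 in KCs and 59 and 88 in TCs, and DESeq2 called 0, 5 and 2 genes, with no member among them. In TCs, where equal library numbers deviated together, the fit with the number as a block called 4 genes (Ccl5, Isg15, Ramp3 and Calca), again no member. On simulated counts the test found 98% of 4-fold and 24% of 2-fold changes in FBs. It found 90% and 23% in KCs, and 97% and 46% in TCs. The simulated counts gave every gene of a class the same dispersion, so genes that vary more between libraries are not covered. These shares are given per class, and how often a change of that size would be found in a member was not tested. The 0 calls therefore do not exclude such changes in a gene. Stab1, Clec4e and Fxyd2 were too sparse to be tested in any of the 3 classes, Dab2 was tested in FBs, and Hmox1 and Socs3 in FBs and KCs.

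Apoe in FBs was 609.8, 1819.7, 263 and 245 CPM after PBMCsec and 154, 435, 405 and 252 CPM after vehicle. The edgeR log2 fold change was 1.28 ± 0.58 (SE), with an unadjusted p of 0.0465 in a class where 1.15% of genes were higher at that level, and an adjusted p of 1.0. PBMCsec 2 stands above the rest and the groups overlap. In KCs, where Apoe is abundant, it was 5212, 6167, 5825 and 11122 CPM after PBMCsec and 2387, 5829, 7912 and 7382 CPM after vehicle (log2 fold change 0.29 ± 0.32, edgeR adjusted p = 1.0). In TCs the log2 fold change was -0.42 ± 0.58 (edgeR adjusted p = 0.999), and without vehicle 3, the highest TC library at 353 CPM, it was 0.71.

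Selenop in FBs was 552, 936, 762 and 480.1 CPM after PBMCsec and 354, 232, 696 and 1135 CPM after vehicle (log2 fold change 0.21 ± 0.40, edgeR adjusted p = 1.0). It was -0.18 ± 0.50 in KCs and 0.05 ± 0.25 in TCs. Dab2 in FBs lay at 45.1 to 142 CPM after PBMCsec and 89.6 to 147 CPM after vehicle, with a log2 fold change of -0.28 ± 0.30 (edgeR adjusted p = 1.0).

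Socs3 in KCs, the class with the largest share of its UMIs, was 194, 315, 303 and 298 CPM after PBMCsec and 44.4, 587, 209.7 and 372 CPM after vehicle, with a log2 fold change of -0.17 ± 0.48 (edgeR adjusted p = 1.0). The lowest and the highest KC library were both vehicle, numbers 1 and 2. In FBs Socs3 was 206, 116, 102 and 72.2 CPM after PBMCsec and 89.6, 413, 58.1 and 44.4 CPM after vehicle, with a log2 fold change of -0.08 ± 0.63, which was 1.14 without vehicle 2.

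Hmox1 in FBs was 395, 45.1, 82.7 and 57.5 CPM after PBMCsec and 55.5, 1246, 33.7 and 25.7 CPM after vehicle. The log2 fold change was -1.12 ± 1.13 (edgeR adjusted p = 1.0), and it was 2.18 without vehicle 2, whose level rests on 1 of 22 FBs that held 217 of 226 UMIs. In KCs the log2 fold change was 0.91 ± 0.88 (edgeR adjusted p = 1.0), and 2.21 without vehicle 2.

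The libraries with high Hmox1 were not the same in each class. PBMCsec 1 was high in macrophages (1030.0 CPM), dermal DCs (581 CPM), FBs (395 CPM), ECs (698 CPM) and neutrophils (635 CPM). PBMCsec 2 was the highest in dermal DCs (2744 CPM) and stood at 34.4 CPM in ECs and 45.1 CPM in FBs. PBMCsec 3 was the highest in ECs (852 CPM). Vehicle 2 was the highest in macrophages (2575 CPM) and in FBs (1246 CPM), where a single cell held 68 of 68 and 217 of 226 UMIs. In ECs a single cell held 53 of 54 Hmox1 UMIs in PBMCsec 1 and 70 of 71 in PBMCsec 3. Without that cell these libraries stood at 14.9 and 13.1 CPM in ECs. Over all barcodes of a library, with no filter and no clusters, Hmox1 stood at 101, 82.8, 37.6 and 15.7 CPM after PBMCsec and at 30.03, 35.4, 14.3 and 10.6 CPM after vehicle, and the groups overlap.

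**Figure D5:**
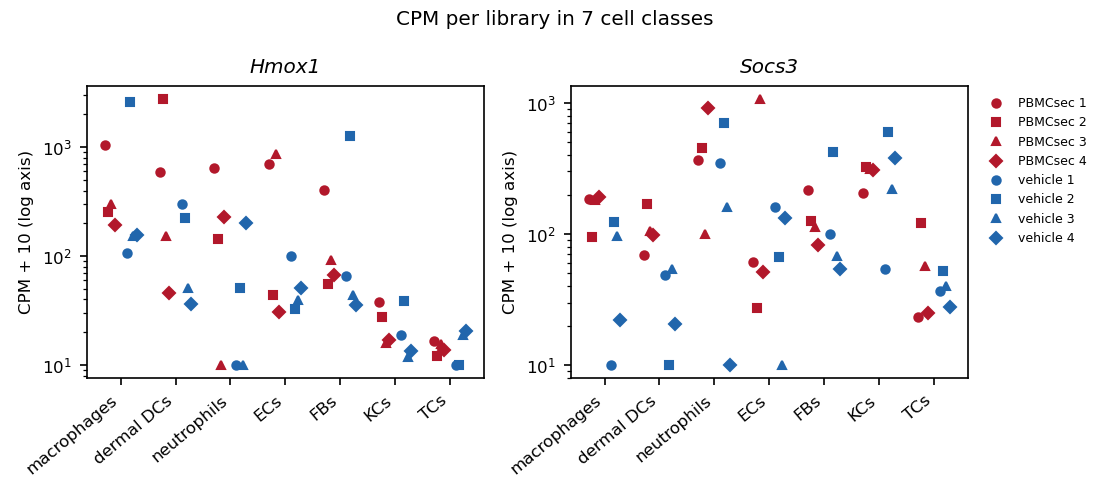
CPM + 10 on a log axis for Hmox1 (left) and Socs3 (right) in 7 cell classes, 1 point per library, with colour for the group and shape for the library number. Hmox1 reaches 2575 CPM in macrophages and 1246 CPM in FBs of vehicle 2, and 2744 CPM in dermal DCs of PBMCsec 2, while TCs stay under 12 CPM in all 8 libraries.

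The other genes of the members' pathways were counted in the joint class from 7 lists, leaving the members out. This is the contrast from which the members were chosen, so nothing is read from the counts. Macrophages gave 18.1 to 34.8% of the UMIs of the class after PBMCsec and 20.3 to 22.4% after vehicle. The lists hold markers used to name macrophages, such as Mrc1 and Cd68, and the part of that share in the values was not tested. No gene of any list was called by edgeR (0 of 5593 genes in all), and the median log2 fold change of all genes tested was -0.02. Scavenger receptors and endocytic adaptors had 13 genes tested, 10 with a positive log2 fold change and a median of 0.55, of which 3 were higher at an unadjusted p under 0.05, where 2.65% of all genes were. Gas6, the bridging ligand for the uptake of dying cells, had the smallest p (log2 fold change 1.84 ± 0.43, edgeR adjusted p = 0.385). It stood at 45.5 to 125 CPM after PBMCsec and 11.7 to 32.6 CPM after vehicle. These ranges do not overlap, but the gene was picked by its p in the same values, so nothing is read from that. The mannose receptor Mrc1 (0.39 ± 0.27) and Cd68 (0.54 ± 0.29), the most abundant genes of the list, had overlapping ranges (476 to 955 against 371 to 738 CPM for Mrc1, 245 to 506 against 180 to 343 CPM for Cd68).

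The haem, iron and oxidative stress list had 11 genes tested, of which 9 had a positive log2 fold change, with a median of 0.60. At an unadjusted edgeR p under 0.05, 5 were higher, where 2.65% of all genes were. Its most abundant genes are the ferritin chains that store iron. Fth1 was 5308 to 10995 CPM after PBMCsec and 3514 to 6147 CPM after vehicle (log2 fold change 0.81 ± 0.22, edgeR adjusted p = 0.685), and Ftl1 was 3888 to 6611 CPM and 2392 to 4417 CPM (0.60 ± 0.22, edgeR adjusted p = 1.0). Txnrd1, a selenium-containing thioredoxin reductase that is also on the selenoprotein list, was 29.1 to 152 CPM after PBMCsec and 27.4 to 46.9 CPM after vehicle (1.42 ± 0.46, edgeR adjusted p = 0.896).

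Apolipoproteins and cholesterol handling had 14 genes tested and 11 positive log2 fold changes, with a median of 0.32. At an unadjusted edgeR p under 0.05, where 2.65% of all genes were higher, 1 was higher. It was Mylip, a ligase that degrades the LDL receptor (0.77 ± 0.35, edgeR adjusted p = 1.0). The lysosomal cholesterol carrier Npc2 (0.06 ± 0.20) and the phospholipid transfer protein Pltp (0.46 ± 0.28) were its most abundant genes. Among the selenoproteins, 4 of 12 had a positive log2 fold change, the median was -0.11 and 1, Txnrd1, was higher at an unadjusted p under 0.05. The glutathione peroxidases Gpx1 and Gpx4 stood at -0.08 ± 0.20 and -0.15 ± 0.22, beside Selenop itself with a ratio of means in macrophages of 2.08.

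For SOCS proteins and cytokine signalling 10 of 15 genes had a positive log2 fold change (median 0.24). At an unadjusted edgeR p under 0.05, 2 were higher, where 2.65% of all genes were. Bcl3, a nuclear NF-kB cofactor, had the smallest p (1.12 ± 0.40, edgeR adjusted p = 1.0). The kinase gene Pim1 stood at 0.24 ± 0.26 and the interleukin-6 receptor gene Il6ra at -0.38 ± 0.26. C-type lectin receptors and their signalling were divided, with 7 of 14 positive, a median of 0.01 and 0 genes at an unadjusted p under 0.05. Fcer1g, the adaptor through which Mincle signals, was at 0.37 ± 0.25, and the downstream genes Card9 and Malt1 at -0.81 ± 0.47 and 0.21 ± 0.45. Of the FXYD and sodium-potassium ATPase list 3 genes were tested, and Fxyd5 (-0.12 ± 0.22) and Atp1b3 (0.20 ± 0.23) had overlapping ranges between the groups.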

How the data were processed

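Single cells from 8 libraries of dorsal mouse skin were profiled by 10x Genomics 3′ sequencing. The deposited values are raw UMI counts per gene and barcode that the authors made with Cell Ranger (3.0.2 in the submitters' processing notes) on mm10, not normalised, and 0 columns were left unmapped to a sample. Barcodes were kept if they had between 500 and 4000 genes, no more than 20000 UMIs and up to 5% mitochondrial counts, as in the study's methods, and Gm42418, Gm17056 and Gm26917 were removed, as were collagen genes outside FBs and keratin genes outside KCs. Between libraries, 4 kept barcodes were shared. Scrublet (scanpy 1.11.5) marked 13 cells (0.211%) and so did not work as a doublet caller, and no doublets were removed. As an alternative the 5% of cells with the highest score per library (276 cells) were left out.

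Cells were integrated and clustered with Seurat 5.3.0 (R 4.3.3; 2000 variable features without the members and pathway genes, 30 dimensions, resolution 1, anchor filter 100, anchor weight 50). A cluster was named from at least 3 markers found in at least 25% of its cells at 2-fold or more, and clusters whose leading genes favoured another class were set unnamed by a rule chosen after the clusters were seen. Cell classes therefore come from rebuilt names.

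The sums of each class in each library entered the quasi-likelihood test of edgeR 4.0.16, after filterByExpr and TMM scaling, with Benjamini-Hochberg adjustment over all genes and a threshold of 0.05, where each library held at least 10 cells. The study tested cells with Wilcoxon tests, whereas here libraries are the replicates. The script was tested on simulated data. DESeq2 1.42.0, the unfiltered table, leaving out each library, 5 to 15% mitochondrial counts, a replicate block and no integration were alternatives. Levels are CPM of the class total, and log2 values carry a prior of 10 CPM. Groups are apart where every PBMCsec library exceeds every vehicle library, read against genes with at least 10 UMIs. Depth limits sparse members: 3 counts are the floor used for a level of 0.

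Equal library numbers correlated above 0.1 in every pair in TCs (0.39, 0.13, 0.16 and 0.43). In the joint class the pairs 1 to 4 stood at 0.31, 0.08, 0.27 and 0.27. In KCs they stood at 0.29, -0.05, 0.12 and 0.40, and in FBs at 0.18, -0.004, 0.05 and 0.24. By the rule that every pair exceed 0.1, a pairing by number was taken to hold for TCs alone. In KCs and the joint class only number 2 fell short of it. The correlation is a feature of the data that the labels do not explain.

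The members and gene lists were chosen with earlier results of these data known. Named genes are the members, for each list the gene with the smallest p and the 2 most abundant in the joint class, the 3 nearest genes by correlation over clusters, and genes called in FBs, KCs or TCs. Of the genes that meet this rule, 1 is not reported here. Gene positions are from GENCODE M21 (GRCm38) and promoters from RefSeq (GRCm38.p6). Figures were drawn with matplotlib 3.10.9.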

Additional observations from a re-analysis of the deposited data

Results flagged for a closer look

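In 12 of 63 groups of 4 libraries 1 library lay far from the other 3 by Dixon's test. For independent, normally distributed values about 1 in 20 (3.15 groups) would do so. CPM from sparse counts need not be such values, and the joint class shares cells with macrophages and dermal DCs. No excess is therefore read from the 12. Hmox1 and Socs3 account for 7 of the 12, and the PBMCsec library 1 and the vehicle library 2 for 7 of the 12.

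In macrophages, Dab2 stood at 1304 CPM in PBMCsec 3 (474 to 543 CPM in the other PBMCsec libraries). Hmox1 stood at 1030.0 CPM in PBMCsec 1 (183 to 290.5 CPM in the others) and at 2575 CPM in vehicle 2 (97.5 to 146 CPM in the others). Socs3 was low in PBMCsec 2, at 85.4 CPM against 172 to 183 CPM. In dermal DCs, Fxyd2 stood at 199 CPM in PBMCsec 4 (6.08 to 31.0 CPM in the others), and in the joint class of DCs and macrophages Clec4e stood at 128 CPM in PBMCsec 1 (51.4 to 63.6 CPM in the others).

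In FBs, Hmox1 stood at 395 CPM in PBMCsec 1 (45.1 to 82.7 CPM) and at 1246 CPM in vehicle 2 (25.7 to 55.5 CPM), and Socs3 at 413 CPM in vehicle 2 (44.4 to 89.6 CPM). In KCs, Apoe stood at 11122 CPM in PBMCsec 4 (5212 to 6167 CPM) and Socs3 at 194 CPM in PBMCsec 1 (298 to 315 CPM). In TCs, Apoe stood at 353 CPM in vehicle 3 (41.97 to 92.3 CPM).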

How the results depend on the processing

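Of the members' values under the alternatives, 341 kept their direction and side of the threshold or moved by less than the spread between libraries, 12 moved further and 25 reversed, and of the counts 67 stayed within 1.5 times and 20 did not. The 5 members highest in macrophages were the same when thinned or summed. Genes called in KCs numbered 5 with DESeq2 (Trbc1, Defb6, Stfa3, BC100530 and Gadd45g), 4 without a filter and 0 to 1 with 1 library left out. In TCs they numbered 2 with DESeq2 (Isg15 and Ramp3), 37 without a filter, 4 with the replicate block and 0 to 2 with 1 library left out. In the joint class they numbered 6 with DESeq2, 108 without a filter, 6 with the replicate block, 2 with high doublet scores removed, 1 without integration and 0 to 1 with 1 library left out. In the joint class 6 members were apart (beside 1.57% of all genes), and 2 in barcodes with 5 to 15% mitochondrial counts (1.13%), where the class lacks Langerhans-type cells. In macrophages 3 members were apart (beside 1.95% of all genes) and 0 at 5 to 15% (1.24%). There were 6 without the vehicle libraries 1 and 2 (8.28%), and 6 without the leading cell (4.35%). With 1 library left out they numbered 3 to 5, and leaving out a library cannot lower this count. The share of all genes was not computed there. These last settings, and those on doublets and integration, include ones chosen after seeing the data.

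In FBs, KCs and TCs no member whose log2 fold change reversed had passed the edgeR test. At 5 to 15% they were -0.16 for Apoe, 1.53 for Hmox1 and 0.51 for Socs3 in FBs and -0.0297 for Selenop in TCs. With the replicate block they were 0.62 for Hmox1 and 0.32 for Socs3 in FBs and 0.17 for Socs3 in KCs. The block changed no member's call in FBs, KCs or TCs. Socs3 in FBs was 0.0414 with high doublet scores removed and 0.12 without integration, and the difference of Hmox1 in macrophages was -0.0281 without integration. With 1 library left out, the ranges were -2.34 to 2.18 (Hmox1), -0.46 to 1.14 (Socs3) and -0.0367 to 0.73 (Selenop) in FBs, -0.49 to 0.31 (Socs3) and -1.04 to 0.10 (Selenop) in KCs, -0.85 to 0.71 (Apoe) and -0.0488 to 0.20 (Selenop) in TCs, and -0.21 to 1.37 (Hmox1) in macrophages. The cause was not tested. Depth limits Stab1, Clec4e and Fxyd2, which rest on 1 to 9 UMIs in each vehicle macrophage sum.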
